A study of Mus musculus with 9 samples.

Results

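RhoA is a small GTPase that switches between a GTP-bound active and a GDP-bound inactive form. Exchange factors load it with GTP, GTPase-activating proteins switch it off, and its active form engages ROCK kinases, formins and, through actin, the transcription factor SRF. In blood stem cells, actomyosin tension set by this pathway is known to act on adhesion, polarity and the shape of the nucleus. Rhosin is a small molecule that binds RhoA and blocks its activation by exchange factors.

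The comparison described here sets old long-term haematopoietic stem cells (LT-HSCs) kept with Rhosin against old LT-HSCs kept without it. Both groups came from bone marrow of C57BL/6 mice over 80 weeks of age and were sorted for Sca1 and cKit and against lineage markers, CD34 and Flt3 (Lin- Sca1+ cKit+ CD34- Flt3-). Both were held for 16 h at 3% oxygen and 5% carbon dioxide in a balanced salt solution with 10% serum. The 3 aged+Ri libraries received Rhosin at 100 µM for these 16 h, and the 3 aged libraries received none; the labels name no vehicle. Members are all genes with at least 10 counts in 3 or more of these 6 libraries, which holds for 12645 of the 21939 genes in the table. The study has 9 libraries in all; the other 3 are from young mice. The labels describe the 3 libraries of a group as biological replicates without giving the number of mice behind each, and p-values therefore measure the spread between these samples. In bulk RNA, fewer cells of a type and less RNA per cell cannot be told apart.

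Library totals were between 37712059 and 72503142 counts, and 3 counts corresponded to between 0.04 and 0.0843 CPM (counts scaled to library size by TMM). The aged+Ri libraries were shallower, at 43956058 ± 10184351 counts against 62307847 ± 8830912 (mean ± SD, n = 3 each; two-sided exact permutation p = 0.1, Benjamini-Hochberg 0.2), and 0.1 is the smallest p that 3 against 3 libraries allow. Sequencing batch 1, per the labels, held replicate 1 of both groups; batch 2 held aged 2 with the other 2 treated libraries, and aged 3 was the only one of batch 3. The first principal component held 32.7% of the variance and placed the aged libraries between -98.8 and -31.7 and the aged+Ri libraries between 16.8 and 126. Aged+Ri 1 stood at the far end, at 126, against 55.4 and 16.8 for aged+Ri 3 and 2. The Y-linked gene Kdm5d had 58 counts in aged+Ri 1 and at most 2 in each of the other 5 libraries. Ddx3y, also Y-linked, had 0 counts in aged+Ri 1, 1 in aged+Ri 3 and 0 in the others. Among the lists below, the genes of the endoplasmic reticulum stood high in aged+Ri 1 and those of neutrophil granules in aged 3, and results that rest on either library are given with and without it.

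The sorted cell type was checked against its markers. Kit was at 438, 420 and 430 CPM in aged libraries 1, 2 and 3, and at 86.8, 318 and 165 CPM in aged+Ri libraries 1, 2 and 3; values below keep this order. Ly6a, which encodes Sca1, was at 526, 348 and 436 CPM without and at 221, 529 and 370 CPM with the inhibitor, so that the groups overlapped. The stem cell regulators Mecom (47.4 to 106 CPM) and Hlf (233 to 717 CPM) and the marker Hoxb5 (61.7 to 80.1 CPM) were present in all 6 libraries. Of the genes the sort should leave out, Cd34 was at 27.6 to 70.3 CPM in aged and at 7.96 to 33.6 CPM in aged+Ri libraries, and Flt3 at 3.32 to 4.66 and at 0.0562 to 0.698 CPM. Lineage markers were low but not all absent: Ms4a1, a B cell gene, was at 10.2 CPM in aged 3 and at most 0.0373 CPM elsewhere, and Itgam reached 5.41 CPM in aged 3. Ly6g and Cd8a did not exceed 0.0796 CPM in any library.

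With the inhibitor, 1 gene rose and 1 fell past an adjusted p of 0.05 in edgeR's quasi-likelihood test (Benjamini-Hochberg), 0.0158% of the 12645 genes (0.00791% in each direction). Nqo1, the quinone reductase that is a standard target of the oxidative stress factor NRF2, rose. Fcer1a, the α chain of the high-affinity IgE receptor of mast cells and basophils, fell. At an unadjusted p under 0.05, 724 genes (5.73%) were higher and 746 (5.9%) lower. The groups did not overlap for 2286 genes (18.1%), 1037 with every aged+Ri library higher (8.2%) and 1249 with every one lower (9.88%). The count of 2 depended on the method: DESeq2 called 371 of the same genes (1.56% higher, 1.38% lower) and edgeR's newer quasi-likelihood method 72, while edgeR called 0 with the sequencing batch as a covariate, where 1691 had an unadjusted p under 0.05. Over all 12645 genes the median log2 change was -0.061, and 46.7% of the changes were positive. These values, and the shares of all genes given above, are what the gene lists below are set against.

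Nqo1 was at 142, 75.3 and 80.5 CPM in the aged libraries and at 607, 823 and 934 CPM in the aged+Ri libraries. Each aged+Ri library was above each aged one by a wide margin, and the lowest aged+Ri value came from batch 1. The log2 change was 2.99 ± 0.34 (SE; edgeR adjusted p = 0.0314, n = 3 each), with differences of 2.09 within batch 1 and 3.54 within batch 2. Nqo1 lies at chr8:107388225-107403206 on the minus strand (GRCm38) and overlaps no annotated gene. The change stayed between 2.82 and 3.34 when each library was left out, but the edgeR adjusted p was 0.138 without aged 2, 0.0935 without aged 3 and 0.0604 without aged+Ri 3. With the sequencing batch as a covariate the edgeR adjusted p was 0.0877, and with all 9 libraries in the fit it was 0.0758.

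Fcer1a was at 15.4, 5.26 and 39.8 CPM in the aged libraries and at 0, 0 and 0.0281 CPM in the aged+Ri libraries. That is 3942 counts in the aged group and 1 count in the aged+Ri group, a ratio of 2689 after scaling for depth (95% exact counting interval 482 to 106241, which covers counting error only; edgeR adjusted p = 0.0314). The gene lies at chr1:173221284-173227214 on the minus strand. Its edgeR adjusted p was 0.202 without aged 3, which held its highest level, 0.0591 without aged 2, 0.0708 without aged+Ri 1, 0.0739 without aged+Ri 3, 0.081 with the batch as a covariate and 0.0978 with all 9 libraries; in limma-voom with sample weights the adjusted p was 0.121. Another mast cell gene, the carboxypeptidase Cpa3, was at 4.2, 44.3 and 85.9 CPM without and at 0, 0 and 5.28 CPM with the inhibitor. This difference had an edgeR adjusted p of 0.568. Hdc, of the same list, overlapped, at 0.449 to 1.49 CPM in aged and 0 to 3.59 CPM in aged+Ri libraries (all 9 libraries normalised together). Of the 7 mast cell list members kept, 5 had a negative and 2 a positive change.

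**Figure D1:**
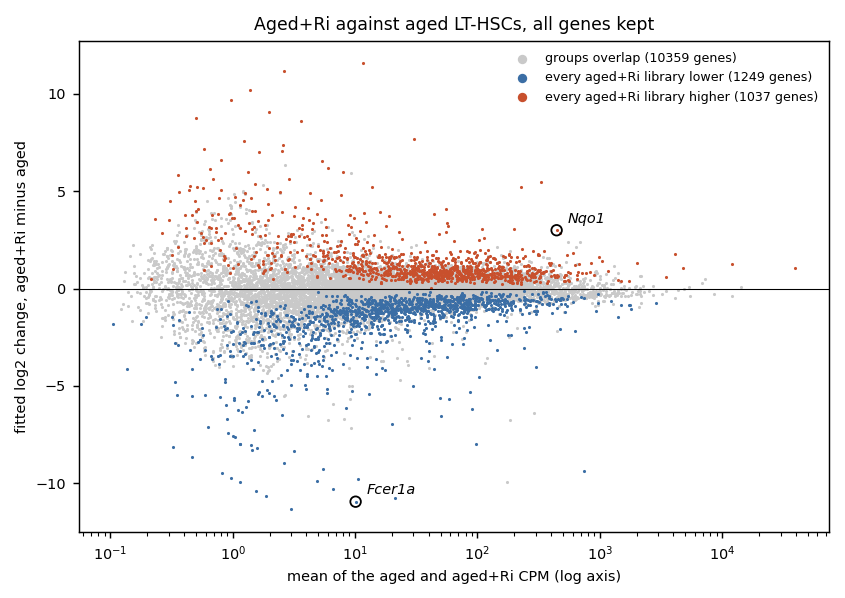
Fitted log2 change, aged+Ri minus aged (vertical axis), against the mean of both groups' CPM (horizontal axis, log scale) for the 12645 genes kept. Red and blue points are the 1037 and 1249 genes whose groups do not overlap, and the circled genes are Nqo1 and Fcer1a, the only genes past the adjusted threshold in the model of these 6 libraries.

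The other genes with the smallest p did not pass the adjusted threshold, and are given by their values. Among those with higher levels were transcription factors and regulators. Tsc22d1, a TGF-β-induced leucine zipper regulator at chr14:76414961-76507765, was at 1755, 1834 and 1975 CPM without and at 6349, 4595 and 7968 CPM with the inhibitor (log2 change 1.77 ± 0.27, edgeR adjusted p = 0.0606). The aged libraries lay close together, while the aged+Ri libraries were spread more widely and all above them. Lmcd1, a LIM-domain gene, was at 34.2, 10.8 and 25.6 against 258, 155 and 172 CPM (3.05 ± 0.44, edgeR adjusted p = 0.0606). Klf6, a zinc-finger factor, was at 117, 110 and 130 against 403, 316 and 327 CPM, and Klf4, a related factor of differentiation, at 0, 0.149 and 0.748 against 48.6, 65.7 and 67.6 CPM. Klf4 (chr4:55527143-55532466) thus had 55 counts in the aged and 8032 in the aged+Ri group, with little spread among the treated libraries; its edgeR adjusted p was 0.076.

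Enzymes and stress genes formed another part of the higher genes. Prdx6, a peroxiredoxin that reduces lipid peroxides, was at 585, 597 and 526 CPM without and at 1576, 1409 and 1548 CPM with the inhibitor (log2 change 1.41 ± 0.24, edgeR adjusted p = 0.0659). This was one of the tightest differences, with SDs of 38.2 and 89 CPM. Coq10b, a coenzyme Q-binding protein, was at 21.2, 48.4 and 27.4 against 302, 106 and 175 CPM. Usp53, of the ubiquitin-specific protease family, was at 7.19, 5.59 and 3.64 against 35.1, 49.2 and 37 CPM. Gprc5a, a retinoic acid-induced receptor, was at 3.27, 1.55 and 1.15 against 47.8, 12 and 29.9 CPM, and Clec4d, a C-type lectin receptor, at 26.5, 19.4 and 14.5 against 114, 63.1 and 149 CPM. The edgeR adjusted p of these 4 genes lay between 0.0606 and 0.0663, and none of them had overlapping groups.

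Globin transcripts of the α cluster had positive changes too. The β-globin gene Hbb-bs overlapped, at 0.325 to 6.56 CPM in aged and 6.27 to 50.8 CPM in aged+Ri libraries (all 9 libraries normalised together). Hba-a1 was at 27.5, 14.3 and 2.74 CPM without and at 617, 419 and 895 CPM with the inhibitor, and Hba-a2 at 22, 10.5 and 2.5 against 448, 270 and 599 CPM (log2 changes 5.44 ± 0.83 and 5.23 ± 0.77, edgeR adjusted p = 0.0663 and 0.0628). Hbq1b, a θ-like globin of the same cluster on chromosome 11, was at 15.3, 12.4 and 6.49 against 129, 44.6 and 139 CPM. Hba-a1 and Hba-a2 are near-identical copies, so how the counting split reads between them is uncertain. Ifit3, an interferon-induced gene, had 1 count in the aged and 2568 in the aged+Ri group, of which most were in aged+Ri 3 (3.6, 2.98 and 63.6 CPM).

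Among the genes with lower levels, several belong to myeloid cells. Prss57, a serine protease of neutrophil granules, was at 6.37, 4.85 and 52.8 CPM without the inhibitor and had 3 counts in the whole aged+Ri group, a ratio of 922 (95% counting interval 315 to 4472). Hk3, the hexokinase of myeloid cells, was at 10.8, 6.21 and 12.3 CPM and had 1 count in the aged+Ri group, a ratio of 1305 (234 to 51571). Ms4a6c, a membrane protein gene of the MS4A family, was at 1.49, 7.89 and 29.8 CPM, with 1 count in the aged+Ri group. Their edgeR adjusted p was 0.0606 in each case. Lst1, a leukocyte-specific transcript, was abundant in all aged libraries at 324, 243 and 214 CPM, and was at 10.4, 44.9 and 31 CPM with the inhibitor (log2 change -3.18 ± 0.48, edgeR adjusted p = 0.0606). For Lst1 and Hk3 aged 3 did not stand apart, whereas for Prss57 and Ms4a6c it held the highest value.

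Enzymes, metal binding and cell cycle genes made up most of the others. Sult1a1, a sulfotransferase, was at 56.7, 59.7 and 83.1 CPM without and at 7.03, 7.54 and 15.9 CPM with the inhibitor (log2 change -2.71 ± 0.43). Mgst2, a microsomal glutathione transferase, was at 45.7, 75.9 and 89 against 5.02, 12.2 and 12.9 CPM, and Ptpn18, a tyrosine phosphatase, at 275, 274 and 236 against 68.1, 95.2 and 81.3 CPM. Cdk6, the G1 kinase that sets how fast HSCs leave quiescence, was at 101, 124 and 115 against 21.8, 39.8 and 22.9 CPM (log2 change -2.01 ± 0.34, edgeR adjusted p = 0.0628). Pcp4l1 was at 84.6, 70.1 and 107 against 20.7, 6.8 and 14.2 CPM, and Myl10, a myosin light chain, at 58.1, 82.5 and 52.2 against 1.2, 7.8 and 7.16 CPM. In each of these 6 genes the 3 aged libraries lay above all aged+Ri libraries, and aged+Ri 1 was the lowest library for all but Pcp4l1. The aged values lay close together for Ptpn18 and Cdk6 and were most spread for Mgst2. Prss57, Hk3, Sult1a1, Ptpn18, Ms4a6c and Cdk6 each overlap another annotated gene on the opposite strand, and no source used here says whether counting took strand into account.

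**Figure D2:**
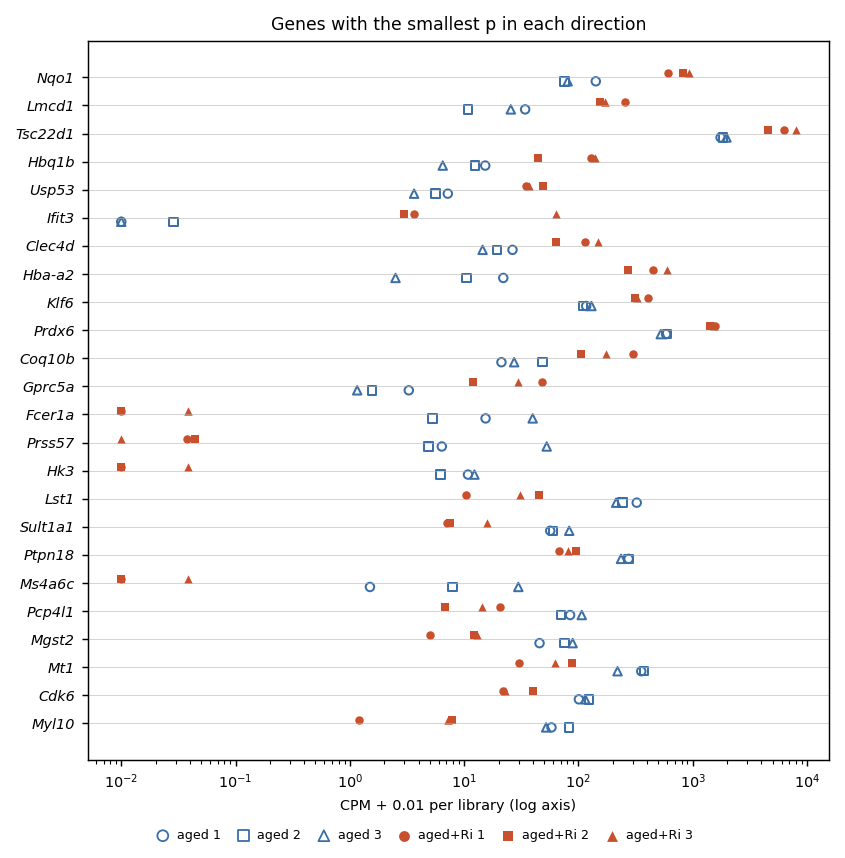
CPM + 0.01 per library (log axis) of the 12 genes with the smallest p in each direction, aged libraries as open blue and aged+Ri libraries as filled red symbols, 1 symbol shape per replicate. In every row the red symbols lie to one side of the blue ones, as the choice of these genes required, and points at 0.01 are counts of 0.

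The RhoA pathway itself was taken first among the gene lists. Of 36 genes of the RhoA family and its regulators, 14 had a positive and 22 a negative log2 change, with a median of -0.2 against -0.061 over all genes. Without aged 3 that median was 0.02, without aged+Ri 1 -0.08 and without aged+Ri 3 -0.36. At an unadjusted p under 0.05, 3 were higher and 6 lower, and the groups did not overlap for 5 higher and 6 lower (13.9% and 16.7%, against 8.2% and 9.88% of all genes). Rhoa and Rhoc themselves were among the higher members. Rhoa (chr9:108306129-108337934) was at 164, 173 and 209 CPM without and at 433, 255 and 358 CPM with the inhibitor (log2 change 0.94 ± 0.29, edgeR adjusted p = 0.263). Rhoc was at 12, 14.2 and 19.8 against 52.4, 31 and 41.8 CPM (1.44 ± 0.40, edgeR adjusted p = 0.232), so that for both GTPases every aged+Ri library exceeded every aged one. Rhob overlapped, at 23.1, 18 and 5.95 against 18.9, 35.6 and 24.4 CPM. Rnd1, an atypical GTPase that opposes RhoA, was at 0.0133, 0.0932 and 0.191 against 1.98, 1.57 and 0.702 CPM.

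Several exchange factors were among the lower members. Arhgef18 was at 36, 26.4 and 53.1 CPM without and at 9.41, 21 and 7.39 CPM with the inhibitor (log2 change -1.61 ± 0.50, edgeR adjusted p = 0.275). Akap13, a RhoA exchange factor that also anchors protein kinase A, was at 323, 174 and 218 against 86.8, 158 and 89.2 CPM. Arhgef2, which is held on microtubules, was at 104, 59 and 76.5 against 35.2, 53.5 and 31.5 CPM. Net1, an exchange factor that shuttles through the nucleus, was at 29.4, 47.4 and 35 against 8.77, 28.1 and 16 CPM, and Arhgef6, which acts on Rac and Cdc42, at 62.2, 84.3 and 65.8 against 31, 49.3 and 21.1 CPM. For these 5 genes no aged+Ri library reached an aged one; the edgeR adjusted p lay between 0.275 and 0.417. Aged+Ri 2 was nearest to the aged libraries in all 5.

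Rac, Cdc42 and related GTPases and the effectors showed no common direction. Of the 15 such GTPases kept, 10 had a positive change (median 0.2, or 0.1 without aged 3 and 0.06 without aged+Ri 1). Rac2, the Rac of blood cells, was at 90.4, 112 and 205 against 21.3, 64.5 and 90.9 CPM, and Rac1 at 148, 175 and 243 against 240, 239 and 262 CPM; the groups overlapped for both. Cdc42, a GTPase tied to polarity, was at 985, 1303 and 917 against 1057, 881 and 1290 CPM, a log2 change of 0.01 ± 0.27. Of 33 ROCK, formin and myosin effectors, 14 were positive and 19 negative (median -0.09). Rock1 was at 107, 172 and 149 against 134, 150 and 164 CPM and Rock2 at 175, 204 and 169 against 244, 170 and 190 CPM, with overlapping groups. The membrane-actin linkers Msn (99.2, 89.6 and 93.7 against 213, 147 and 196 CPM) and Ezr (20.3, 36 and 25.2 against 49.6, 59.9 and 62.5 CPM) were higher in each aged+Ri library than in any aged one (edgeR adjusted p = 0.232 and 0.289).

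Among 32 SRF, MRTF and actin genes, 14 were positive and 18 negative (median -0.04), and 1 was higher and 0 lower at an unadjusted p under 0.05 in edgeR. Actb, the cytoplasmic β-actin, was at 595, 492 and 617 against 355, 420 and 458 CPM (log2 change -0.47 ± 0.26, edgeR adjusted p = 0.527), and Tpm4, a tropomyosin, at 17.5, 57.8 and 47.1 against 115, 69 and 130 CPM. Of the tubulins, 8 of 11 had a positive change, with a median of 0.46. For 4 of the 11 every aged+Ri library was higher (36.4%, against 8.2% of all genes). Tubb6 was at 0.133, 2.91 and 1.51 against 37.7, 7.24 and 21.7 CPM, Tubb3 at 0, 0.112 and 0 against 6.92, 4.92 and 3.2 CPM, and the γ-tubulin Tubg1 at 4, 1.27 and 0.382 against 21.3, 8.18 and 20.3 CPM (edgeR adjusted p between 0.206 and 0.235). Without aged 3 the tubulin median was 1.22, and without aged 2 it was 0.15.

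The Hippo pathway list, whose coactivators YAP and TAZ respond to tension, had 9 positive and 8 negative members of 17 (median 0.02). Wwtr1, which encodes TAZ, was at 37.9, 50.4 and 36.2 CPM without and at 153, 71 and 89.8 CPM with the inhibitor (log2 change 1.33 ± 0.35, edgeR adjusted p = 0.214). Yap1 was at 1.71, 0.298 and 1.88 against 0.698, 0.406 and 1.29 CPM. Of 19 nuclear lamina and linker genes, 10 were positive (median 0.07). Lmna, which encodes lamin A/C, was at 0.0267, 1.38 and 3.04 against 9.27, 4.5 and 7.27 CPM, and Sun2, an inner nuclear membrane protein that links lamina and cytoskeleton, at 25.7, 34.4 and 19.8 against 6.84, 14.5 and 9.49 CPM (edgeR adjusted p = 0.556 and 0.316). The 23 genes of H3K9 methylation and HP1 had 8 positive and 15 negative changes (median -0.14), and 0 of them passed an unadjusted p of 0.05 in edgeR or an adjusted one in DESeq2.

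Oxidative stress genes held the gene that rose. The NRF2 list has 52 members kept, 29 positive and 23 negative (median 0.22); at an unadjusted p under 0.05, 15 were higher and 2 lower. The groups did not overlap for 17 higher members and 1 lower one (32.7% and 1.92%). The list was thus split: its median was -0.21 within batch 1 and 0.48 within batch 2, and it was 0.42 without aged 1. Nfe2l2, which encodes NRF2, was at 186, 232 and 220 against 414, 335 and 302 CPM, and its inhibitor Keap1 at 32, 25.4 and 14.3 against 14.1, 21.4 and 8.76 CPM (edgeR adjusted p = 0.337 and 0.64). Hmox1, the haem-degrading enzyme, was at 246, 69 and 31.1 against 1059, 779 and 651 CPM (2.85 ± 0.69, edgeR adjusted p = 0.206). Slc7a11, the cystine importer, was at 16.5, 3.51 and 19 against 194, 58.9 and 42.4 CPM. The lower members included the glutathione transferase Mgst2 given above.

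Txnrd1, the cytosolic thioredoxin reductase, was at 62.5, 63.7 and 38.1 CPM without and at 112, 173 and 127 CPM with the inhibitor (1.32 ± 0.32, edgeR adjusted p = 0.185). Gclm, the modifier subunit of the enzyme that begins glutathione synthesis, was at 611, 625 and 523 against 780, 1480 and 930 CPM, and its catalytic partner Gclc at 32.3, 46.9 and 34.6 against 65.4, 80.3 and 73.3 CPM. In these 3 genes each aged+Ri library exceeded each aged one. The promoters of Txnrd1 and Gclm are shown because they hold the core of the antioxidant response element that NRF2 binds, TGACNNNGC on either strand, in capitals. The sequences here and below are the 250 bases before a RefSeq start on the gene's strand (GRCm38.p6), and the genes shown were chosen after their values were seen.
Txnrd1, chr10:82858956-82859205, plus strand: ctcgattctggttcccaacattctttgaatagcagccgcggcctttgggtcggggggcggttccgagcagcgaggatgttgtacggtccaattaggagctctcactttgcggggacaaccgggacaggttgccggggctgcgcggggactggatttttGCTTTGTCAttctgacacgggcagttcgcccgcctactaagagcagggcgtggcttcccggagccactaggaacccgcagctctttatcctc
Gclm, chr3:122245307-122245556, plus strand: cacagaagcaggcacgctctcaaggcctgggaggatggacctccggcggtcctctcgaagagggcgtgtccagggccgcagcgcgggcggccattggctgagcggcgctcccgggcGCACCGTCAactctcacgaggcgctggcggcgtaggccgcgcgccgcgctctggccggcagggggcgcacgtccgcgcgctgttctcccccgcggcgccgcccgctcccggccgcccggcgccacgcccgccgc
The match starts at -92 in Txnrd1 and at -134 in Gclm, counted from the start site. The RefSeq table holds 3 windows for Txnrd1, and the other two, at chr10:82833701-82833950 and chr10:82860091-82860340, have 0 matches. Of the 60 promoters of the NRF2 list, 16 (26.7%) hold the core, against 10.2% of all 32851 promoters in the RefSeq table. The 15 genes concerned had 8 positive and 7 negative changes. Among the genes higher at an unadjusted p under 0.05 without overlap, 13.4% of promoters hold the core, against 11.5% for all genes kept. The Nqo1 window was searched too and holds no match.

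Iron storage genes are also NRF2 targets. Fth1 and Ftl1, the heavy and light chains of ferritin, were among the most abundant transcripts. Fth1 was at 9938, 6518 and 4945 against 14157, 16504 and 20658 CPM, and Ftl1 at 31353, 25856 and 20974 against 53753, 45046 and 60436 CPM (log2 changes 1.26 ± 0.30 and 1.03 ± 0.25, edgeR adjusted p = 0.185 for both). Ncoa4, the receptor that delivers ferritin to the lysosome, was at 214, 297 and 215 against 91.5, 163 and 147 CPM, and Slc11a2, an iron importer, at 14, 22.9 and 23.7 against 7.57, 4.51 and 9.27 CPM. For all 4 genes the groups did not overlap. Over the 18 ferritin and iron genes kept, 11 were positive and 7 negative (median 0.13).

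Metallothioneins and zinc transporters had 9 positive and 8 negative changes among 17 (median 0.09). Mt1, the main metallothionein here, was at 355, 376 and 220 CPM without and at 30.3, 87.1 and 61.8 CPM with the inhibitor (log2 change -2.41 ± 0.41, edgeR adjusted p = 0.0628). Every aged library exceeded every aged+Ri library. Its neighbour Mt2 was low in both groups, at 15.6, 25.9 and 7.72 against 10.4, 14.6 and 3.37 CPM. Slc39a14, a zinc importer, was at 0.32, 0.224 and 0.398 against 3.6, 3.13 and 3.9 CPM, and Slc30a7, which loads zinc into the secretory pathway, at 51.8, 64.1 and 66.9 against 195, 84 and 148 CPM.

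The largest positive median of the 47 lists belonged to chaperones of the endoplasmic reticulum (ER) and the unfolded protein response, which raises ER folding capacity when unfolded proteins build up. Changes were positive for 37 of 41 genes (median 1.02), and 20 were higher and 0 lower at an unadjusted p under 0.05. None passed the adjusted threshold of edgeR; 7 did in DESeq2, all higher (over all genes 1.56% were). The groups did not overlap for 10 higher and 2 lower members (24.4% and 4.88%). One library carried much of the size: the summed level of the list was 5395, 6349 and 6200 CPM in aged and 23819, 5899 and 10632 CPM in aged+Ri libraries. The median was 2.12 within batch 1 and 0.43 within batch 2, and without aged+Ri 1 it was 0.51, with 33 of 41 members positive. Its rank rests on that library too: without aged+Ri 1 the Kruppel-like factors (0.67) and immediate early genes (0.56) had larger medians, and within batch 2 the tubulins (1.09) and Kruppel-like factors (0.79) did.

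Hspa5, the ER chaperone BiP, was at 155, 154 and 219 CPM without and at 2060, 160 and 518 CPM with the inhibitor (log2 change 2.38 ± 0.85, edgeR adjusted p = 0.362). Manf, a secreted ER stress protein, was at 144, 283 and 222 against 2417, 191 and 839 CPM, and the lectin-like Sdf2l1 at 14.9, 5.35 and 9.25 against 216, 16.7 and 75.4 CPM. Aged+Ri 2 was within or near the aged range for all 3 genes, aged+Ri 3 above it and aged+Ri 1 far above it. The same order held for Dnajb9, a BiP cochaperone, at 95.3, 113 and 144 against 872, 182 and 285 CPM, and for Herpud1, a component of ER-associated degradation, at 118, 143 and 177 against 1170, 189 and 313 CPM. Edem2, which marks misfolded glycoproteins for degradation, was less uneven, at 60.6, 39.3 and 48.2 against 135, 97 and 76.9 CPM (1.06 ± 0.33, edgeR adjusted p = 0.266).

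**Figure D3:**
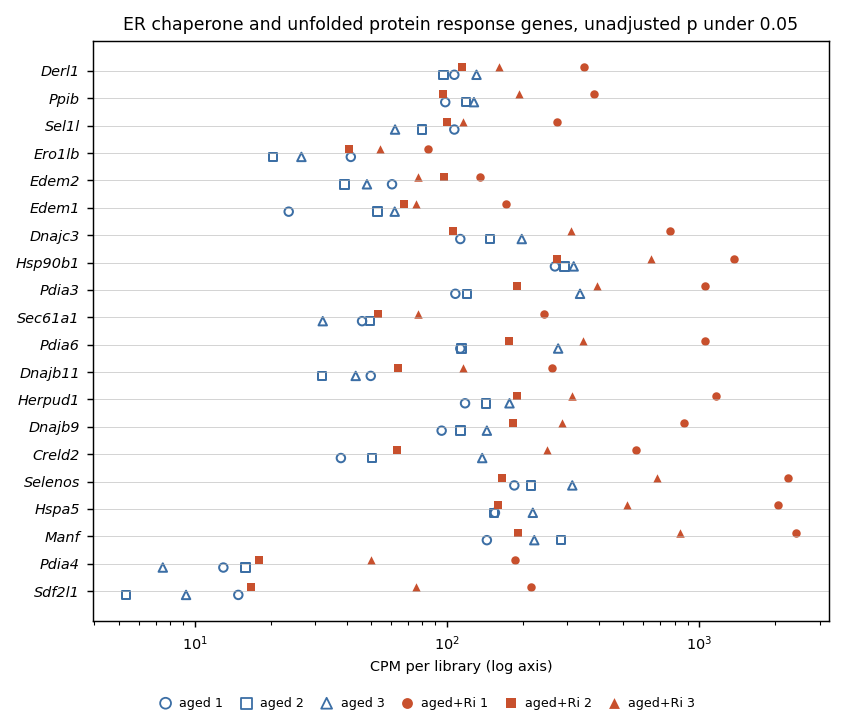
CPM per library (log axis) of the 20 genes of the ER list with an unadjusted p under 0.05, aged libraries as open blue and aged+Ri libraries as filled red symbols. The red circles, aged+Ri 1, are the highest value in every row, and the red squares, aged+Ri 2, are at or below the highest aged value for 12 of the 20 genes and above it for the other 8.

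Promoters of 3 ER genes are shown because they hold the complete ER stress element to which NF-Y and ATF6 bind, in capitals. It was searched on both strands as CCAAT and CCACG with 9 bases of any kind between them, and its CCAAT part is also a general promoter box.
Hspa5, chr2:34771840-34772089, plus strand: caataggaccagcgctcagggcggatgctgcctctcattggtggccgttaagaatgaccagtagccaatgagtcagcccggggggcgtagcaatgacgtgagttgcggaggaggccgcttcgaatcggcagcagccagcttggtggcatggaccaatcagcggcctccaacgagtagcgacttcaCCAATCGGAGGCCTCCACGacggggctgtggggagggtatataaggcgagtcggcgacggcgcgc
Hsp90b1, chr10:86705445-86705694, minus strand: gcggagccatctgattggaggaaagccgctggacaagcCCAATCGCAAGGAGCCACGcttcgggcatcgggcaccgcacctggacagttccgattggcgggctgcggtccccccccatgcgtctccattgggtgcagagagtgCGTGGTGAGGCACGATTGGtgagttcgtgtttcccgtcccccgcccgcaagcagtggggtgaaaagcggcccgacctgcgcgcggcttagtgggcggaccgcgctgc
Creld2, chr15:88819396-88819645, plus strand: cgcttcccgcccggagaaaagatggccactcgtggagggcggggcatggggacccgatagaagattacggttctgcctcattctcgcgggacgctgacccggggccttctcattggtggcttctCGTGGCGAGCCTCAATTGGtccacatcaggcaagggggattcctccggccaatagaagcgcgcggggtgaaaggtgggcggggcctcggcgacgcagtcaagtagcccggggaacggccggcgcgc
The match starts at -65 in Hspa5, at -212 and -107 in Hsp90b1 and at -126 in Creld2. The element was found in 37 of 32851 promoters in the RefSeq table (0.113%) and in 9 of the 34 promoters of the ER list (26.5%). All 9 genes that hold it (Hspa5, Hsp90b1, Calr, Canx, Pdia6, Dnajc3, Syvn1, Creld2 and Derl3) had a positive log2 change, in a list where 37 of 41 did; without aged+Ri 1 that of Calr was -0.19. Among all genes higher at an unadjusted p under 0.05 without overlap, 0 of 576 promoters hold the element, against 0.14% of the promoters of all genes kept. Hsp90b1, the ER form of HSP90, was at 268, 293 and 318 against 1375, 272 and 643 CPM, and Creld2, a secreted ER stress protein, at 38, 50.5 and 138 against 560, 63.2 and 249 CPM.

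The ATF4 list, targets of the integrated stress response that restores amino acid supply, had a median of 0.81, with 35 of 45 members positive. At an unadjusted p under 0.05, 15 were higher and 1 lower. The groups did not overlap for 13 higher and 2 lower (28.9% and 4.44%, against 8.2% and 9.88% of all genes). Within batches the median was 1.1 and 0.41, and without aged+Ri 1 it was 0.42, with 30 of 45 positive. Atf4 itself was at 288, 159 and 207 against 619, 300 and 298 CPM (0.89 ± 0.36, edgeR adjusted p = 0.375). Asns, asparagine synthetase, was at 149, 149 and 142 CPM without and at 850, 224 and 396 CPM with the inhibitor (1.74 ± 0.42, edgeR adjusted p = 0.185). Slc3a2, which carries amino acid exchangers to the cell surface, was at 310, 277 and 218 against 1701, 500 and 632 CPM, and Cebpg, a partner of ATF4, at 69.4, 74.5 and 101 against 397, 156 and 210 CPM. For these 3 genes each aged+Ri library exceeded each aged one, with aged+Ri 1 highest. Trib3, an inhibitor of ATF4 signalling, was at 61.9, 33.3 and 30.7 against 343, 90.2 and 71.3 CPM. The composite ATF4 site TGATGCAA lies in 7 of the 52 promoters of this list (13.5%) and in 0.791% of all promoters, and the 7 genes (Atf3, Chac1, Pycr1, Nupr1, Vldlr, Got1 and Jdp2) had positive changes, but without aged+Ri 1 those of Chac1 and Pycr1 were -0.01 and -0.92.

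Of the 20 cytosolic tRNA synthetases, which the ATF4 response includes, 15 had a positive change (median 0.35). Sars, the seryl-tRNA synthetase, was at 131, 112 and 112 against 473, 190 and 284 CPM (1.42 ± 0.35, edgeR adjusted p = 0.185). Without aged+Ri 1 the median of the 20 genes was 0.07, and within batch 2 it was 0.11.

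Heat shock and cytosolic folding genes had 33 positive members of 39 (median 0.52), 7 higher and 0 lower at an unadjusted p under 0.05. Without overlap, 10 were higher and 1 lower (25.6% and 2.56%, against 8.2% and 9.88% of all genes). Dnajb1, the main HSP40, was at 52.5, 71.3 and 62.5 against 167, 86.6 and 141 CPM (1.08 ± 0.32, edgeR adjusted p = 0.256), and Stip1, which joins HSP70 to HSP90, at 46.2, 39 and 51.8 against 120, 74.8 and 77 CPM. Hspb1, a small heat shock protein that stabilises actin filaments, was at 26.8, 11.6 and 5.95 against 35.2, 42.1 and 61.1 CPM. Each aged+Ri library was above the aged ones for all 3. The heat shock element GAANNTTC lies in 10 of the 40 promoters of this list (25%) and in 6.69% of all promoters; the 9 genes with it had positive changes. For the higher genes without overlap the share was 5.9%, against 5.02% for all genes kept. The 8 subunits of the CCT chaperonin, which folds actin and tubulin, had 7 positive changes of small size (median 0.22, or 0.13 without aged+Ri 1 and 0.34 without aged+Ri 2), and 0 passed an unadjusted p of 0.05 in edgeR or an adjusted one in DESeq2.

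Degradation was covered by 3 lists. Of 33 autophagy and ubiquitin genes, 25 had a positive change (median 0.29), and within batches the medians were 0.41 and 0.38. Becn1, which starts autophagosome formation, was at 41.8, 54.6 and 52.3 CPM without and at 164, 123 and 106 CPM with the inhibitor (edgeR adjusted p = 0.137), the receptor Optn at 13.3, 30 and 13.8 against 97.9, 58.9 and 58.5 CPM, and the receptor Sqstm1, also an NRF2 target, at 490, 343 and 296 against 1135, 942 and 530 CPM. None of these 3 genes overlapped between groups. Of 39 proteasome subunits, 24 were positive (median 0.08), and of 35 lysosome and V-ATPase genes, 21 were positive (median 0.07). Atp6v1h, a V-ATPase subunit, was at 61.1, 113 and 78.4 against 271, 124 and 251 CPM.

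Kruppel-like factors had 12 of 15 members positive (median 0.63), and the groups did not overlap for 7 higher and 0 lower (46.7% of the list). Besides Klf4 and Klf6, Klf2, a factor of quiescence and of flow response, was at 0.36, 3.28 and 13.7 against 62.3, 121 and 61.7 CPM (log2 change 3.82 ± 1.16, edgeR adjusted p = 0.309). Klf3 was at 52, 65.2 and 71.9 against 88.7, 108 and 118 CPM, and Klf10 at 63.7, 43.5 and 20.6 against 66, 93.3 and 104 CPM. The medians within batches were 0.24 and 0.79. Klf4 is also a monocyte gene and is counted in that list too.

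Immediate early and AP-1 genes had 28 positive and 12 negative members of 40 (median 0.51), 7 higher and 0 lower at an unadjusted p under 0.05. Nr4a1, an orphan nuclear receptor that restrains HSC proliferation, was at 3.39, 1.47 and 3.25 CPM without and at 67.8, 10.9 and 27.5 CPM with the inhibitor (3.71 ± 0.71, edgeR adjusted p = 0.088). Nr4a2 was at 10.5, 18.4 and 8.87 against 75.2, 23.3 and 34.9 CPM, and Junb, an AP-1 subunit, at 8.66, 12.3 and 17.6 against 29.3, 31.7 and 24 CPM. The G protein regulators Rgs1 (592, 401 and 435 against 868, 621 and 1044 CPM) and Rgs2 (158, 230 and 231 against 259, 368 and 430 CPM) were higher in each aged+Ri library.

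Inflammatory genes had 18 of 31 positive members (median 0.18). Ptgs2, which encodes cyclooxygenase-2, was at 0.133, 0.0186 and 0.334 against 14, 4.18 and 17.4 CPM (6.17 ± 1.22, edgeR adjusted p = 0.0956). The chemokine Ccl3 overlapped, at 369, 281 and 114 against 42.3, 68.5 and 163 CPM. Interferon response genes had 20 positive and 33 negative members of 53 (median -0.33, or -0.21 without aged 3), with groups that did not overlap for 4 higher and 12 lower (7.55% and 22.6%). Ifitm1, an antiviral membrane protein abundant in HSCs, was at 533, 680 and 512 against 197, 228 and 293 CPM (-1.26 ± 0.28, edgeR adjusted p = 0.142). Sting1, the adaptor of cytosolic DNA sensing, was at 22.5, 9.66 and 61.5 against 4.22, 3.04 and 6.49 CPM, and the guanylate-binding protein Gbp7 at 40, 68.5 and 59.5 against 11.6, 28.2 and 26 CPM. Ifit3 and its copy Ifit3b stood on the other side, and the reads of the pair may be split between them.

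The p53 list had 21 of 35 positive members (median 0.2), 4 higher and 0 lower at an unadjusted p under 0.05. Plk2, a polo-like kinase, was at 3.66, 1.53 and 13 against 191, 13.5 and 107 CPM, and Bax, a pore-forming death effector, at 95.9, 69.5 and 58.3 against 166, 144 and 100 CPM (edgeR adjusted p = 0.301 and 0.336). The BCL2 family had 11 of 20 positive members (median 0.18). Its anti-apoptotic member Bcl2l1 was at 9.07, 4.51 and 7.31 against 0.223, 2 and 0.59 CPM.

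A second broad pattern concerned the list of HSC surface and identity. This list also holds Cd34, against which the cells were sorted, and Cd48, both with a negative change. A negative member is therefore not always an LT-HSC marker. Of 46 genes of HSC surface and identity, 42 had a negative and 4 a positive log2 change (median -0.74); 16 were lower and 2 higher at an unadjusted p under 0.05, and 14 lower and 2 higher did not overlap (30.4% and 4.35%). None passed the adjusted threshold of edgeR, and in DESeq2 6 did on the lower and 1 on the higher side. The median was -1.48 within batch 1 and -0.57 within batch 2. Without aged+Ri 1 it was -0.57 with 39 of 46 negative, and without aged+Ri 2, the treated library nearest to the aged ones, it was -1.23 with 42 negative.

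The transcription factors of the list came first by p. Etv6, an ETS repressor required for adult HSC survival, was at 136, 146 and 115 CPM without and at 32.7, 46.9 and 55.3 CPM with the inhibitor (log2 change -1.56 ± 0.31, edgeR adjusted p = 0.0956). Lmo2 and Tal1, partners in one blood stem cell complex, were at 867, 608 and 719 against 172, 455 and 320 CPM and at 314, 171 and 165 against 44.3, 149 and 69.8 CPM. Runx1 was at 141, 209 and 188 against 50, 134 and 70.2 CPM and Fli1, another ETS factor, at 113, 162 and 103 against 28.3, 85.2 and 68.2 CPM. Each of these 5 factors was lower in every aged+Ri library, and aged+Ri 1 was the lowest each time.

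Surface receptors were mostly on the same side. Kit, the stem cell factor receptor given above, had a log2 change of -1.17 ± 0.41 (edgeR adjusted p = 0.315), and its 3 aged values lay close together. Slamf1, which encodes CD150, overlapped, at 8.18, 15 and 35.7 against 0.558, 11.9 and 1.04 CPM. The 4 positive members of the list were Procr, the protein C receptor EPCR that marks LT-HSCs, Foxo1, a quiescence factor, and, with overlapping groups, Mecom and Trpc6 (log2 changes 0.20 and 0.13). Procr was at 141, 83.5 and 76.5 against 407, 177 and 216 CPM (1.41 ± 0.38, edgeR adjusted p = 0.216), and Foxo1 at 41.1, 54 and 41.1 against 89.9, 61.3 and 73.1 CPM. For Procr and Foxo1, every aged+Ri library was above every aged one.

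**Figure D4:**
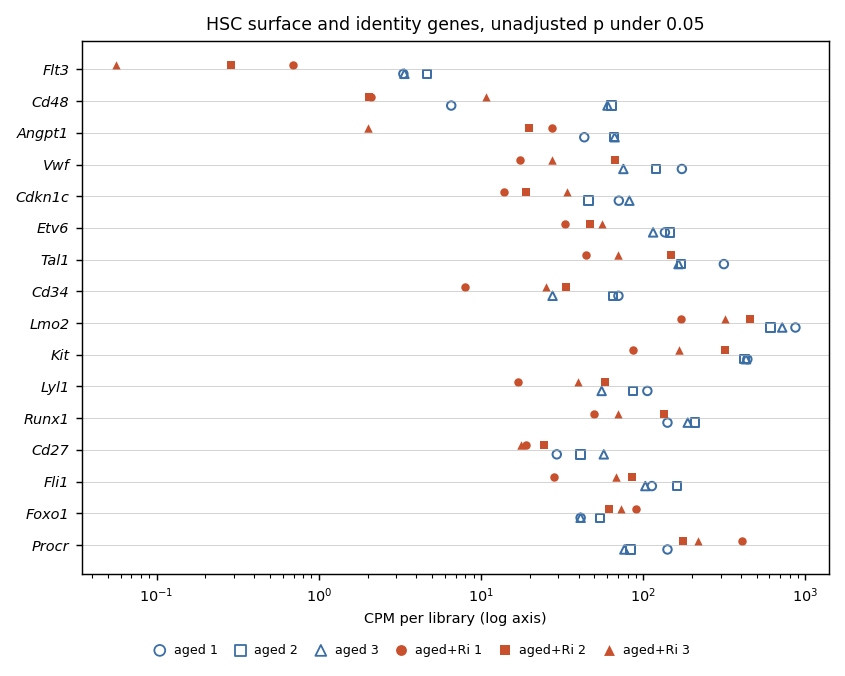
CPM per library (log axis) of 16 of the HSC surface and identity genes with an unadjusted p under 0.05, aged libraries as open blue and aged+Ri libraries as filled red symbols. The change is negative for 14 genes and positive for Procr and Foxo1, and the groups overlap for Cd48, Lyl1 and Cd34 among them.

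Genes reported by other studies to be higher in aged HSCs went in both directions: 23 of 48 were positive and 25 negative (median -0.1). At an unadjusted p under 0.05 in edgeR, 4 were higher and 13 lower, where 5.73% and 5.9% of all genes were. The groups did not overlap for 4 higher and 12 lower (8.33% and 25%, against 8.2% and 9.88% of all genes). Besides Sult1a1 and Mt1, Vwf, the von Willebrand factor gene of platelet-biased HSCs, was at 173, 120 and 75.4 against 17.3, 66.8 and 27.3 CPM (-1.72 ± 0.50, edgeR adjusted p = 0.237). Fyb, an adaptor that links receptors to integrins, was at 103, 87.7 and 85.5 against 42, 31.7 and 37.2 CPM, and the retinaldehyde dehydrogenase Aldh1a1 at 298, 216 and 197 against 46.5, 159 and 70.9 CPM. Jam2, a junctional adhesion molecule, was on the higher side, at 90.7, 150 and 108 against 232, 369 and 506 CPM (1.67 ± 0.35, edgeR adjusted p = 0.116), as was Wwtr1. Nupr1, the most abundant member, overlapped at 2393, 2686 and 1481 against 2664, 2008 and 2414 CPM.

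Platelet and megakaryocyte genes had 13 of 18 negative members (median -0.76). Without overlap, 6 were lower and 0 higher (33.3% and 0%, against 9.88% and 8.2% of all genes). The median was -1.73 within batch 1, -0.49 without aged 2 and -0.39 without aged+Ri 1. In that last setting 7 members were positive and 2 higher without overlap, where 12% of all genes were higher without overlap. Gp9, a subunit of the von Willebrand factor receptor, was at 1.24, 2 and 14.8 CPM and had 0 counts in the aged+Ri group, which is at least 257-fold lower at 3 counts over the group. Cd9, a tetraspanin abundant in these cells, overlapped at 1443, 1815 and 1779 against 1685, 2611 and 3479 CPM. Integrins and homing receptors were split, with 17 positive and 18 negative of 35 (median -0.02). Itgav, the αV integrin, was at 69.7, 65.6 and 14.8 against 256, 116 and 211 CPM, Cxcr4, the homing receptor for CXCL12, at 99.3, 73.9 and 66.4 against 127, 143 and 124 CPM, and Cd44, the hyaluronan receptor, at 54.4, 55.6 and 64.3 against 23.9, 40.3 and 27.9 CPM. The groups did not overlap for these 3 genes (edgeR adjusted p between 0.224 and 0.364).

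Cell cycle entry genes had 15 of 23 negative members (median -0.52), 4 lower and 2 higher at an unadjusted p under 0.05. Without aged 2 the median was -0.08, with 12 negative and 11 positive, and without aged+Ri 1 it was -0.16. Myb, a progenitor proliferation factor, was at 232, 360 and 299 CPM without and at 22.6, 78.6 and 66.3 CPM with the inhibitor (-2.41 ± 0.43, edgeR adjusted p = 0.0663). With Cdk6, the D-type cyclin Ccnd3 was at 86.4, 121 and 101 against 17.4, 69.2 and 44.6 CPM. The CDK inhibitors were divided. Cdkn1c, the p57 inhibitor that holds HSCs quiescent, was at 70.7, 46 and 82.1 against 13.9, 19 and 33.8 CPM, whereas Cdkn1a, the p53 target p21, was at 32.5, 11.9 and 54.3 against 107, 84.9 and 81.3 CPM. Cdkn2b, the p15 inhibitor, was at 0, 0 and 0.0318 against 3.24, 2.81 and 1.4 CPM.

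S phase genes were balanced, with 19 of 36 positive (median 0.06), and 0 higher and 1 lower at an unadjusted p under 0.05 in edgeR. Of 32 genes of G2 and mitosis, 28 were negative (median -0.5), but only 1 was higher and 2 lower at that p. The summed level of the mitotic list varied within groups, at 521, 1493 and 2103 CPM in aged and 1101, 1073 and 1894 CPM in aged+Ri libraries, and its median moved with single libraries: it was -0.09 without aged 3 or without aged+Ri 1, -0.27 without aged 2, -0.93 without aged 1 and -1.07 without aged+Ri 3. Cenpa, the centromeric histone, was at 125, 196 and 272 against 778, 256 and 691 CPM, and the mitotic kinase Plk1 at 5.75, 5.26 and 19.3 against 1.03, 2.84 and 3.15 CPM.

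All 13 mitochondrially encoded genes had a negative change (median -0.73), 7 of them at an unadjusted p under 0.05. Without overlap, 3 were lower (23.1%, against 9.88% of all genes). They are transcribed as polycistronic RNAs and are not independent of each other. Their share of all counts was 2.94% ± 0.522 in aged and 2.01% ± 0.506 in aged+Ri libraries (n = 3 each; two-sided exact permutation p = 0.1, Benjamini-Hochberg 0.2 over 4 library measures). mt-Co3 was at 2865, 4655 and 3281 against 1737, 2569 and 2156 CPM. Of 48 nuclear-encoded subunits of oxidative phosphorylation, 38 were negative (median -0.28, or -0.18 without aged 2), and the groups did not overlap for 13 lower and 1 higher (27.1% and 2.08%). Ndufb7, of complex I, was at 407, 474 and 282 against 176, 219 and 231 CPM, and Cox6c, of complex IV, at 663, 828 and 467 against 291, 405 and 443 CPM (edgeR adjusted p = 0.284 and 0.354). Uqcrfs1, the Rieske protein of complex III, was on the other side, at 187, 132 and 186 against 247, 229 and 302 CPM.

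Ribosomal protein genes had 74 of 79 negative members with a median of -0.28, but 0 were lower or higher at an unadjusted p under 0.05 in edgeR, 0 passed in DESeq2, and the groups overlapped for all 79. Their summed level was 115111, 99906 and 61867 CPM in aged and 81455, 73820 and 82566 CPM in aged+Ri libraries, so that aged 3 was the lowest of all 6. The overlap rests on that library: without aged 3 the median was -0.49, 77 of 79 were negative and 66 did not overlap, all lower (15.9% of all genes without it). Without aged 1 the median was -0.08. Glycolysis genes had 15 of 25 positive members (median 0.23, or 0 without aged+Ri 2), with Eno1, the glycolytic enolase, at 81.1, 74.4 and 155 against 263, 193 and 203 CPM. HIF and hypoxia genes had 17 of 26 positive (median 0.33, or 0.55 without aged 2). Their groups did not overlap for 7 higher and 2 lower (26.9% and 7.69%, against 8.2% and 9.88% of all genes). Vegfa, the angiogenic factor, was at 81.3, 62.1 and 37.8 against 162, 266 and 127 CPM (1.61 ± 0.38, edgeR adjusted p = 0.175), and Hilpda, a lipid droplet protein induced by hypoxia, at 103, 76.7 and 71.4 against 225, 124 and 175 CPM. Both groups were kept at the same oxygen level. Cholesterol and fatty acid genes had 18 of 34 positive (median 0.14), and the median was -0.56 within batch 1 and 0.55 within batch 2. Msmo1, a sterol demethylase, was at 59.5, 98.7 and 151 against 280, 440 and 242 CPM.

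Genes of other blood and marrow cells made up the lowest list medians. All 20 neutrophil granule genes kept of 28 had a negative change (median -3.46), but aged 3 had by far the highest sum. The list summed to 2063, 1636 and 13667 CPM in aged and 1203, 1859 and 1521 CPM in aged+Ri libraries. These sums include Gstm1, a glutathione transferase and the list's most abundant member by mean CPM. With all 9 libraries normalised together, Gstm1 was at 896 to 1847 CPM in aged and 837 to 1418 CPM in aged+Ri libraries. Outside aged 3, the sums therefore say little about the other members. Without aged 3 the median was -0.75, with 14 negative and 6 positive. Elane, neutrophil elastase, was at 105, 116 and 4241 CPM without and at 6.73, 0 and 0.0562 CPM with the inhibitor, and Mpo, myeloperoxidase, at 47.3, 34.9 and 448 against 7.37, 0 and 0 CPM. Prtn3, proteinase 3, was at 77.6, 67.2 and 505 against 29, 38.7 and 37.9 CPM, and Lyz2, lysozyme, at 143, 161 and 1402 against 8.15, 65.1 and 30.8 CPM. For these 4 genes aged 3 was the highest library, yet aged 1 and 2 were also above all aged+Ri libraries. The part of other cells in these results was not tested.

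The promoters of Elane and Prtn3, which are neighbours on chromosome 10, are shown because each holds GAGGAAGT, a site of the myeloid factor PU.1, in capitals (both strands searched).
Elane, chr10:79886062-79886311, plus strand: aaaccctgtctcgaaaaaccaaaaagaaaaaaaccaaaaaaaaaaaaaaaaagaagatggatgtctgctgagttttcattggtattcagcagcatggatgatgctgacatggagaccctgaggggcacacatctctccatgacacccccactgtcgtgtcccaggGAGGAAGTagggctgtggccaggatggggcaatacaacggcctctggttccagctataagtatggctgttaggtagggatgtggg
Prtn3, chr10:79879417-79879666, plus strand: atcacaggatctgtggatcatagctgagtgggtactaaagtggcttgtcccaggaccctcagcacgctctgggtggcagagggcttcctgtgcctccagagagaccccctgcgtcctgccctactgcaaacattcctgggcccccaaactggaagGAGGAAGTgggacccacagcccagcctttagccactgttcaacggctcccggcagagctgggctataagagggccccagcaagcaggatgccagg
The site starts at -85 in Elane and at -95 in Prtn3. It lies in 4 of 18 promoters of the neutrophil list (22.2%) and 4 of 23 of the monocyte list (17.4%), against 2.44% of all promoters.

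Monocyte and myeloid surface genes had 23 of 28 negative members (median -1.7, 33 on the list). The groups did not overlap for 10 lower and 4 higher (35.7% and 14.3%, against 9.88% and 8.2% of all genes). Their sum was 1123, 1570 and 3246 CPM in aged and 948, 791 and 1008 CPM in aged+Ri libraries, and the median was -1.34 without aged 3 and -2.76 without aged+Ri 3. Fcer1g, the γ chain shared by Fc receptors, was at 208, 452 and 491 CPM without and at 68.8, 51.6 and 165 CPM with the inhibitor (-2.01 ± 0.47, edgeR adjusted p = 0.175). Tyrobp, a signalling adaptor, was at 66.8, 75.7 and 446 against 6.87, 2.01 and 16.3 CPM, and Cd33 at 1.83, 3.08 and 27.8 against 0, 0.0169 and 0.0281 CPM. Ly6c2 was at 27.2, 51.4 and 432 against 5.05, 5.56 and 2.02 CPM. The macrophage and dendritic list had 11 of 13 negative members kept of 24 (median -1.96, or -0.81 without aged 3), and its sum was 538 to 1816 CPM in aged and 283 to 469 CPM in aged+Ri libraries. Apoe was at 335, 353 and 599 against 85.1, 232 and 195 CPM. The mast cell list, which also holds Kit and Gata2 of HSCs, had 5 of 7 negative members kept of 16 (median -0.83, or -1.77 without aged+Ri 2), and summed to 588 to 705 CPM in aged and 158 to 466 CPM in aged+Ri libraries.

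Lymphoid priming genes had 29 of 31 negative members (median -1.07, or -0.66 without aged+Ri 1) and summed to 1530, 3192 and 2349 CPM in aged and 800, 1226 and 1447 CPM in aged+Ri libraries. Mef2c, a lymphoid transcription factor also expressed in HSCs, was at 201, 203 and 145 CPM without and at 81.5, 95.8 and 101 CPM with the inhibitor (-0.98 ± 0.28, edgeR adjusted p = 0.235). Hes1, a Notch target, was an exception, at 43.4, 63.4 and 37.2 against 179, 90.3 and 176 CPM. The T and NK list had 13 of 16 negative members kept of 31 (median -1.6) and summed to 175 to 608 CPM in aged and 67.8 to 525 CPM in aged+Ri libraries. In it, Klrb1c, which encodes NK1.1, was even across the aged libraries, at 57.5, 49.8 and 66.5 against 1.34, 0.203 and 3.85 CPM (-5.02 ± 0.87, edgeR adjusted p = 0.0663). The T cell gene Cd3d was at 0.04, 6.17 and 32.9 against 0.0279, 0.575 and 0 CPM. The other 3 members kept had a positive change. With all 9 libraries normalised together, Gzmm, a granzyme gene, was at 0.0364 to 0.338 CPM in aged and 0.709 to 2.8 CPM in aged+Ri libraries. The chemokine gene Ccl5, which the sums of this list include, overlapped at 3.08 to 117 and 3.74 to 373 CPM. Mature B and plasma cell genes had 11 of 12 negative members kept of 21 (median -2.1, -0.53 within batch 1 and -3.2 within batch 2), and Jchain, the joining chain of antibodies, was at 24.1, 1445 and 707 against 59.2, 384 and 40.9 CPM.

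Erythroid genes were split, with 9 of 17 positive (median 0.43, but -0.41 within batch 1, -0.17 within batch 2, 0.1 without aged 1, -0.23 without aged+Ri 1 and -0.13 without aged+Ri 2). Beside the α-globins, Car2, carbonic anhydrase 2, was at 1740, 2297 and 2806 CPM without and at 909, 1423 and 1479 CPM with the inhibitor, and Hemgn at 12.4, 9.55 and 14.7 against 1.31, 4.4 and 0.281 CPM. Gata1, the erythroid and megakaryocyte factor, was at 0.507, 16.1 and 9.23 against 0.0558, 4.9 and 0.0843 CPM. Stromal and endothelial genes had 8 of 10 negative members kept of 22 (median -0.86, or -1.34 without aged+Ri 2) and summed to 278 to 323 CPM in aged and 59.7 to 207 CPM in aged+Ri libraries.

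**Figure D5:**
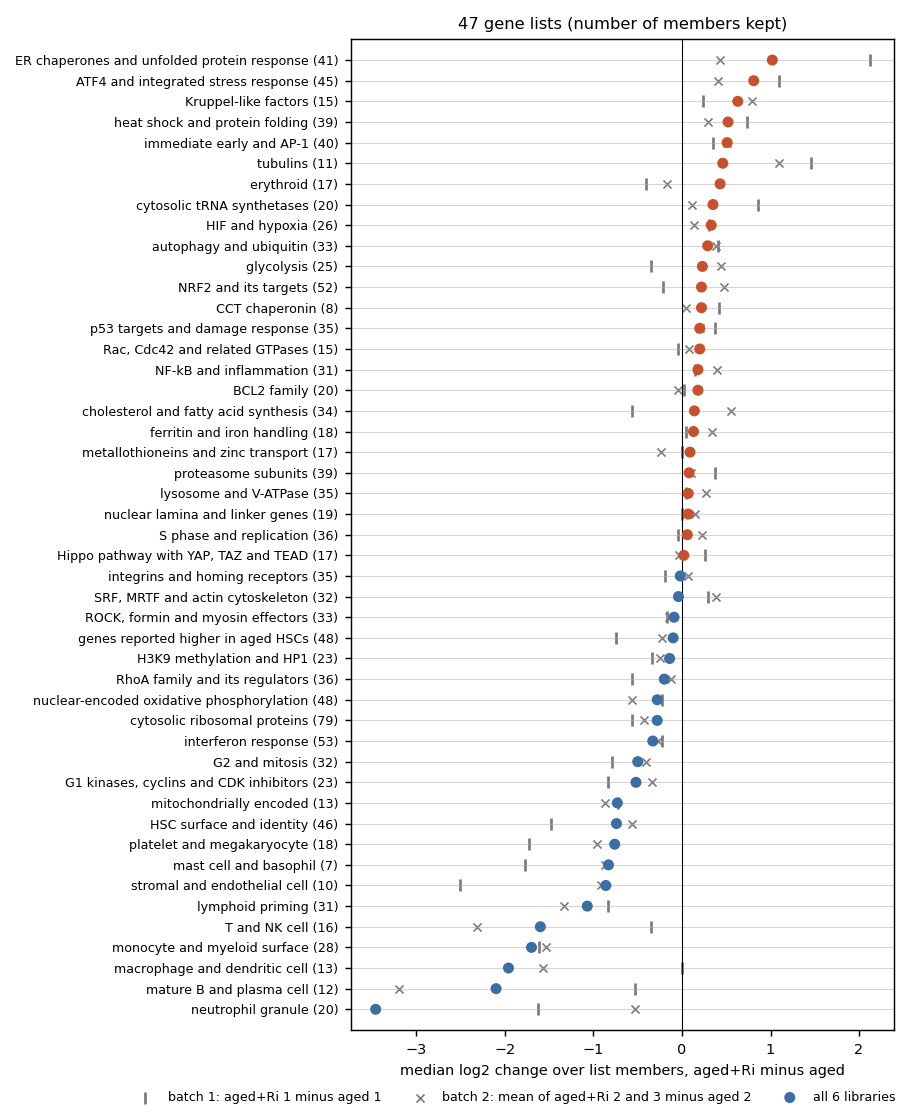
Median log2 change, aged+Ri minus aged, of the members kept of each of 47 gene lists (circles, red above 0 and blue below), with the medians within batch 1 (bars) and batch 2 (crosses) in grey. ER chaperones (1.02) stand at the top and neutrophil granule genes (-3.46) at the bottom, and the batch medians of several lists lie far from the circle.

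Some genes reached 10 counts in 1 group alone, and passed the filter through that group. Of the genes kept, 61 had at least 10 counts in all 3 aged libraries and in none of the aged+Ri libraries, and 35 the reverse, while 10360 had at least 10 counts in all 6. The threshold is on counts and the aged libraries were deeper, so 61 and 35 are not set against each other. In 8 of the 61 the aged+Ri group had 0 counts, and in 4 of the 35 the aged group had 0. Besides Gp9, Lcn12, a lipocalin, had 699 counts in the aged group, at least 159-fold lower with the inhibitor. Ptger1, a prostaglandin E2 receptor, had 125 counts in the aged group, at least 28.4-fold lower with the inhibitor. Nts, the neuropeptide neurotensin, had 238 counts in the aged+Ri group and 0 in the aged group, at least 116-fold higher, and Ifit3b had 575, at least 281-fold higher. The edgeR adjusted p of these 5 genes lay between 0.142 and 0.259. At the edge of the filter, 679 genes passed in exactly 3 libraries (median of the mean count 39.2), and 887 reached 10 counts in only 2 (18.8) and were left out.

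The young libraries give a further scale for the genes above, from 1 normalisation of all 9 libraries; the comparisons share the aged libraries, so the values are set side by side only. Nqo1 was at 48.2 to 112 CPM in young, 73.4 to 138 in aged and 591 to 922 in aged+Ri libraries. Klf4 was at 0.332 to 0.425, 0 to 0.728 and 47.3 to 66.7 CPM in the same order, and Tsc22d1 at 924 to 1447, 1708 to 1921 and 4481 to 7866 CPM. For these 3 genes the aged+Ri libraries lay above both other groups. Fcer1a was at 0.0277 to 0.149 CPM in young, 5.13 to 38.8 in aged and 0 to 0.0277 in aged+Ri libraries, Sult1a1 at 0.36 to 21, 55.1 to 80.8 and 6.85 to 15.7 CPM, and Mt1 at 6.67 to 103, 214 to 366 and 29.5 to 84.9 CPM. In these 3 genes the aged libraries lay above both other groups. Lst1 was at 294 to 312, 208 to 315 and 10.1 to 43.7 CPM, Cdk6 at 129 to 226, 98 to 121 and 21.3 to 38.8 CPM, and Myb at 375 to 632, 225 to 351 and 22 to 76.7 CPM. There the aged+Ri libraries lay below both other groups.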

How the data were processed

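RNA of sorted cells was sequenced after SMART-Seq v4 and Nextera XT preparation, per the labels' protocols. The deposited table holds the authors' estimated counts per gene, with fractional values; the submitters' processing notes list featureCounts, STAR 2.7.0, cutadapt 1.18, SAMtools 1.14 and R 4.2.0 on GRCm38, without settings, so strand use and the treatment of multi-mapping reads are not given in the sources used here. Estimated counts were rounded to whole numbers and scaled by TMM (edgeR 4.0.16, R 4.3.3). Genes with at least 10 counts in 3 or more of the 6 libraries were fitted with edgeR's default quasi-likelihood method, with group as the only term, and p-values were adjusted by Benjamini-Hochberg over all 12645 genes. Log2 changes are fitted values, aged+Ri minus aged, and a group is called non-overlapping when all 3 of its libraries lie to one side of the other 3. The procedure was tested on simulated data.

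Members and gene lists were chosen with earlier results of these data known, so no list was tested as a set. Named genes were up to 12 per direction with the smallest p among non-overlapping genes averaging 5 CPM or more in the higher group, up to 6 per direction with the largest change at p under 0.01, without overlap and from 20 CPM, up to 6 members of each of 47 lists with the smallest p plus its most abundant member, and a fixed set of pathway and stem cell genes, of which Xist was not analysed here. Predicted genes were left out, and a few genes are not reported here. Other genes named, among them those with promoter motifs and those at 0 counts in one group, were chosen after their values were seen. Alternatives were DESeq2 1.42.0, limma 3.58.1 (voom), other scalings and filters, all 9 libraries, batch or replicate number as a term, and each library left out. Gene positions are from GENCODE M21, in which 21447 of 21939 symbols were found.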

Additional observations from a re-analysis of the deposited data

How the results depend on the processing

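The count of 2 genes past the adjusted threshold was the least stable result. It was 371 with DESeq2, 29 with limma-voom (Nqo1 but not Fcer1a among them), 72 with edgeR's newer quasi-likelihood method, 256 of 20319 genes with no filter and 33 of 10001 with a stricter one. It was 0 with all 9 libraries (922 at an unadjusted p under 0.05) and 0 with the batch as a covariate (1691). When each library was left out it lay between 0 and 42. With the replicate number as a block, edgeR called 0 (1267 at an unadjusted p under 0.05; adjusted p = 0.0698 for Nqo1 and for Fcer1a); deviations of same-numbered libraries correlated at 0.07, -0.06 and 0.05, so the numbers are not taken as pairs, and not every library correlated best with its own number. Genes whose groups do not overlap numbered between 3001 and 4331 when 1 library was left out, where 3 libraries face 2. The difference in genes detected per library, -558, lay between -1155 and 326 (without aged 2). DESeq2 size factors moved the median of all genes from -0.061 to -0.037 and left 2 calls.

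Of the 47 list medians, 33 kept their sign without each library and 14 did not, among them the RhoA (-0.36 to 0.02), ROCK (-0.21 to 0.12), SRF and actin (-0.21 to 0.36), Hippo (-0.38 to 0.12) and erythroid lists (-0.23 to 0.45). Signs turned for 11 named genes. With the batch as a covariate they were -0.11 for Cdc42, -0.1 for Mecom, -0.1 for Nupr1 and 0.22 for Yap1. Hoxb5 was at 0.02 with DESeq2 size factors and with DESeq2, and at 0 with the stricter filter, with all 9 libraries and with the block. With each library left out, the changes ranged from -0.19 to 0.62 for Calr, -0.14 to 0.18 for Cdc42, -0.01 to 2.37 for Chac1, -0.06 to 0.1 for Hoxb5, -0.56 to 0.07 for Ly6a, -0.05 to 0.38 for Mecom, -0.07 to 0.29 for Nupr1, -0.92 to 4.6 for Pycr1, -0.11 to 0.22 for Rock1 and -0.01 to 0.29 for Trpc6. The cause was not tested. Differences below 3 counts, 0.04 to 0.0843 CPM, are not detectable at this depth. The median SD of log2 CPM among replicates was 0.586 in aged and 0.553 in aged+Ri libraries.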
